A study of Mus musculus with 4 samples.

Results

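Capillary and arterial endothelial cells of the mouse digit made up 1230 of the 39266 cells kept from 4 single-cell libraries. They were chosen from transcript counts. A cell had to carry no Ptprc (the pan-leukocyte antigen CD45) and at least 2 UMIs (unique molecular identifiers, each one counted RNA molecule) of Cdh5 (VE-cadherin) plus Pecam1, both endothelial junction proteins. Within this endothelial gate of 4244 cells, a cell was a member where the summed UMIs of Gpihbp1, Sox17, Dll4 and Prnd came to at least 2 and exceeded both the venular sum (Selp, Ackr1, Sele, Tmem252) and the lymphatic sum (Mmrn1, Prox1, Reln). The same gate held 1661 venular and 428 lymphatic cells, and the remaining gate cells fell into neither class.

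Capillary endothelium is the thin exchange lining of the smallest vessels, where GPIHBP1 carries lipoprotein lipase to the lumen and fatty-acid binding proteins handle the released lipid. Arterial endothelium is specified by the transcription factor SOX17 and by Notch signalling through the ligand DLL4, and expresses gap junction proteins and ephrin-B2. During angiogenesis, VEGF-stimulated tip cells lead a new sprout, express ESM1, APLN and ANGPT2, remodel the basement membrane and hold neighbouring cells back from the tip fate through DLL4 and Notch.

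The study followed the second phalanx (P2) of wild-type FVB/NJ mice, 8 weeks old, before amputation and at 12, 17 and 28 days post amputation (dpa), at a level whose tissue the labels of the amputated samples call fibrosing. There was 1 library for each of the 4 conditions, and each is labelled as pooled from male and female animals. Tissue was dissected by hand, digested with trypsin and collagenase I, freed of red cells, sorted for live cells by propidium iodide and run on the 10x Chromium platform with 3′ chemistry. No sort for endothelium was made, and the number of pooled animals is not given in the sources used here.

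With 1 library per condition there was no replicate check. No p-value is given, and every interval is an exact 95% interval that covers counting error only. The unamputated library held 565 members, the 12 dpa library 312, the 17 dpa library 173 and the 28 dpa library 180. Their summed depth in that order was 8716726, 3801629, 1580520 and 1358064 UMIs. The median member held 12494, 9304, 7847 and 5724.5 UMIs, so later members were shallower. Between 19 and 87 barcodes were shared by any pair of libraries, none of them members.

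The 12 dpa library stood apart in sex-linked transcripts. Members there held Xist (the X-inactivation RNA, expressed in female cells) at 652.1 CPM (UMIs per 1000000 UMIs summed over members), against at most 0.633 CPM in the members of any other library. Y-linked genes were at 0 CPM in members at 12 dpa and between 247.4 and 335.7 CPM in the other libraries. The labels give pooled sexes for all 4 libraries, while members at 12 dpa carried female transcripts and members of the others male transcripts. Sex and time therefore cannot be told apart in any difference between 12 dpa and another library.

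The pan-endothelial markers were found in most members of every library. In the unamputated library Cdh5 was found in 98.9% of members and Pecam1 in 99.8%, and at 28 dpa in 92.2% and 99.4%, which the rule partly fixed. Of the genes that chose the members, Sox17 was found in 71.9%, Dll4 in 64.2%, Prnd (doppel, an endothelial prion-like protein) in 54.3% and Gpihbp1 in 54.0% of unamputated members. At 28 dpa, at lower depth, the same genes were found in 66.1%, 68.3%, 25.6% and 33.3%. The lymphatic gene Mmrn1 was found in 0.354%, Prox1 in 5.66% and the venular gene Selp in 9.38%. These values only describe the selection, in which 56.5% of unamputated members and 70.6% of those at 28 dpa held no venular or lymphatic rule transcript at all. Just inside the threshold, 60, 48, 33 and 58 members of the unamputated, 12, 17 and 28 dpa libraries held exactly 2 UMIs of the 4 genes. Just outside it, 282, 168, 112 and 134 gate cells held 1 UMI. The median member sum was 7, 6, 5 and 3 UMIs in the same libraries.

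The 4 genes that defined the members are listed with their places in GENCODE M21 on GRCm38. Gpihbp1 lies at chr15:75596628-75599481 on the plus strand, Sox17 at chr1:4490931-4497354 on the minus strand, Dll4 at chr2:119325784-119335962 on the plus strand and Prnd at chr2:131950861-131956130 on the plus strand. Summed over members, Gpihbp1 stood at 168.8, 243.6, 186.0 and 103.1 CPM in the unamputated, 12, 17 and 28 dpa libraries, and Prnd at 271.9, 317.8, 194.2 and 114.1 CPM. Sox17 stood at 144.2, 151.5, 191.7 and 195.9 CPM, and Dll4 at 120.3, 107.8, 157.5 and 166.4 CPM. Both Gpihbp1 and Prnd were lowest at 28 dpa, where Sox17 and Dll4 were highest. Because these 4 genes chose the members, their levels were set in part by the rule and only describe the selection. The effect of the rule at the lower depth of late members was not tested.

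The upstream regions of Apln and Ephb1, a sprouting peptide and a guidance receptor, are shown because both genes were low in late members. Each runs 5′ to 3′ on the gene's strand from 250 bases before to 50 after the RefSeq start on GRCm38.p6, at chrX:48034804-48035103 (minus strand) for Apln and chr9:102354644-102354943 (minus strand) for Ephb1. Capitals mark CTTCCT, the reverse complement of AGGAAG, a form of the core bound by ETS-family factors such as ERG and FLI1.
Apln: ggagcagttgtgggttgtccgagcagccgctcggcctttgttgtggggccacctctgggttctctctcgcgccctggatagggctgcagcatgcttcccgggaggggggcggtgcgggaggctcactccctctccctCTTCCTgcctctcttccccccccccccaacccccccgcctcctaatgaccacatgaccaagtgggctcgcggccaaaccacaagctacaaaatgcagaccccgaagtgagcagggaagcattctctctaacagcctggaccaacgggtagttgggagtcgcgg
Ephb1: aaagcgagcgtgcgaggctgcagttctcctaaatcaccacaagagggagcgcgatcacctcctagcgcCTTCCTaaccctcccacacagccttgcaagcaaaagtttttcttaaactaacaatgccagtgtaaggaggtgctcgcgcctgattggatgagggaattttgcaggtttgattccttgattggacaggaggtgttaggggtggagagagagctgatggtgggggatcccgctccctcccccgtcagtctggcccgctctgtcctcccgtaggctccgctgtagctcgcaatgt
Searched on both strands, AGGAAG was found once in each sequence, and 35.4% of all promoters of this length in the table (11613 of 32851) held it. The match is a description of these letters and not a binding site.

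Members were a smaller share of kept cells in the 2 late libraries. They formed 4.73% (interval 4.35 to 5.12) of kept cells before amputation. The shares at 12, 17 and 28 dpa were 4.49% (4.02 to 5.01), 1.99% (1.71 to 2.31) and 1.54% (1.33 to 1.78). The intervals of the unamputated and 12 dpa libraries overlapped, those of 17 and 28 dpa overlapped, and the early pair lay apart from the late pair. After thinning every cell to 3000 UMIs, the shares were 3%, 3.26%, 1.24% and 0.964%, with the same split. The lower late share was not limited to members. In the unamputated, 12, 17 and 28 dpa libraries the whole endothelial gate was 15%, 14%, 8.21% and 6.54% of kept cells. Venular cells were 6.36%, 5.03%, 3.12% and 2.41%, and lymphatic cells 1.71%, 2.19%, 0.426% and 0.3%. A lower share can come from fewer members or from more cells of other types, and these cannot be told apart here.

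Within the endothelial gate the split was smaller. Members were 31.5% of gate cells (29.3 to 33.7) before amputation, and 32.1% (29.2 to 35.1), 24.2% (21.1 to 27.5) and 23.6% (20.6 to 26.7) in the 12, 17 and 28 dpa libraries. Gate cells that were not members, venular or lymphatic numbered 265 of 1794, 159 of 972, 233 of 714 and 268 of 764 in that order. A larger part of the gate was thus unassigned in the late libraries, and the part of depth in this was not tested. Set against venular cells alone, members were 42.6% (40.0 to 45.4), 47.2% (43.3 to 51.1), 39.0% (34.4 to 43.7) and 39.0% (34.6 to 43.7) of the pair in that order. Thinned to 3000 UMIs the shares of the pair were 35.0% (31.9 to 38.1), 43.5% (39.0 to 48.1), 31.6% (26.4 to 37.1) and 33.8% (28.4 to 39.6). Only 12 dpa stood above the unamputated library at matched depth, and the intervals of 17 and 28 dpa overlapped that of the unamputated library.

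**Figure D1:**
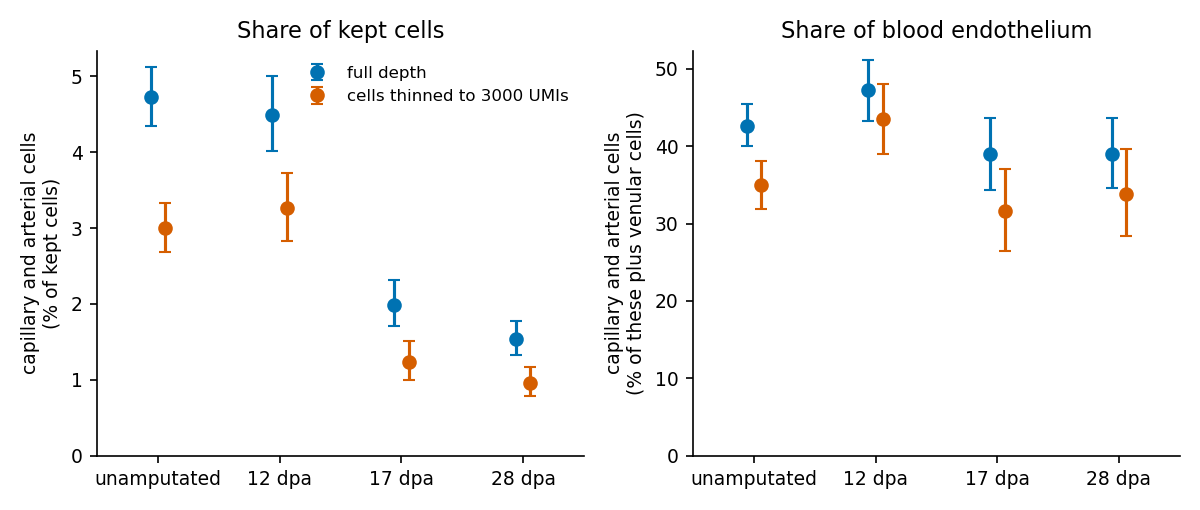
Left, members as a percent of kept cells in the unamputated, 12, 17 and 28 dpa libraries, at full depth and after thinning to 3000 UMIs per cell; right, members as a percent of members plus venular cells, with bars as exact 95% intervals for counting error. The late libraries sit at 1.99% and 1.54% of kept cells against 4.73% before amputation, while the right panel spans 39.0% to 47.2% at full depth.

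Members were not uniform. Cells with Sox17 or Dll4 but no Gpihbp1 numbered 238, 112, 88 and 114 in the unamputated, 12, 17 and 28 dpa libraries, cells with Gpihbp1 but neither of the others 34, 36, 17 and 9, and cells with both kinds 271, 142, 64 and 51. The first kind was 42.1% of unamputated members and 63.3% of those at 28 dpa. Depth moved with these shares, since unamputated cells with both kinds held a median of 14469 UMIs and those with Gpihbp1 alone 9594.5, and its part in the shares was not tested.

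Genes that the rule did not use followed this split within each library. Of 19 arterial genes with at least 100 UMIs, 16 were higher in the cells with Sox17 or Dll4 alone than in the cells with Gpihbp1 alone in all 4 libraries, and none was lower in all 4. Over all 7968 genes with that depth, 13% were higher and 8.36% lower in all 4 libraries. Of 12 capillary genes, none was higher in all 4 libraries and 7 were lower. Gja4 (connexin 37, an arterial gap junction protein) stood at 291.5, 585.3, 189.9 and 152.7 CPM in the Sox17 or Dll4 cells of the unamputated, 12, 17 and 28 dpa libraries, against 14.94, 41.31, 64.06 and 40.19 CPM in the Gpihbp1 cells. Gja5 (connexin 40) had no UMI in the Gpihbp1 cells of any library and 160, 72, 26 and 9 UMIs in the Sox17 or Dll4 cells. Sema3g (a class 3 semaphorin of arterial endothelium) was higher in the Sox17 or Dll4 cells by log2 ratios of 4.76, 3.37, 2.16 and 1.66. The ratios of both Gja4 and Sema3g were larger in the 2 early libraries than in the 2 late ones. Those of Hey1 and Vegfc, of the same list, were larger in the 2 late libraries. The arterial genes thus shared no direction of change in this ratio between early and late libraries. At 28 dpa the ratios rest on 9 Gpihbp1 cells.

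The 7 capillary genes that were lower in the Sox17 or Dll4 cells of all 4 libraries were Aqp1, C1qtnf9, Cd300lg, Fabp4, Fabp5, Meox1 and Rgcc. Of these, Aqp1, C1qtnf9, Fabp4, Fabp5 and Meox1 were higher in venular cells than in members in all 4 libraries, so they do not mark capillaries alone. Cd300lg and Rgcc were higher in members than in venular cells in all 4. Fabp4 (a fatty-acid binding protein of capillaries) stood at 953.4, 1376, 1464 and 1266 CPM in the Gpihbp1 cells and at 438.8, 387.0, 622.5 and 366.6 CPM in the Sox17 or Dll4 cells. Rgcc (a cell cycle regulator of capillary endothelium) had log2 ratios of -1.11, -1.73, -1.85 and -2.02 for Sox17 or Dll4 cells over Gpihbp1 cells, and Cd300lg (nepmucin, a sialomucin receptor of capillary endothelium) -1.26, -1.62, -0.75 and -1.51. Meox1 (a homeobox factor) had -1.23, -0.97, -0.72 and -1.43. Of 20 tip cell genes, Pgf was higher in the Sox17 or Dll4 cells in all 4 libraries, while 8 were lower in all 4: Apln, Col4a1, Col4a2, Esm1, Lamb1, Mcam, Nid2 and Robo4. The other 11 had no common direction in all 4. Exceptions among the arterial genes were Cxcl12, Ltbp4 and Unc5b, each with a negative ratio at 28 dpa.

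**Figure D2:**
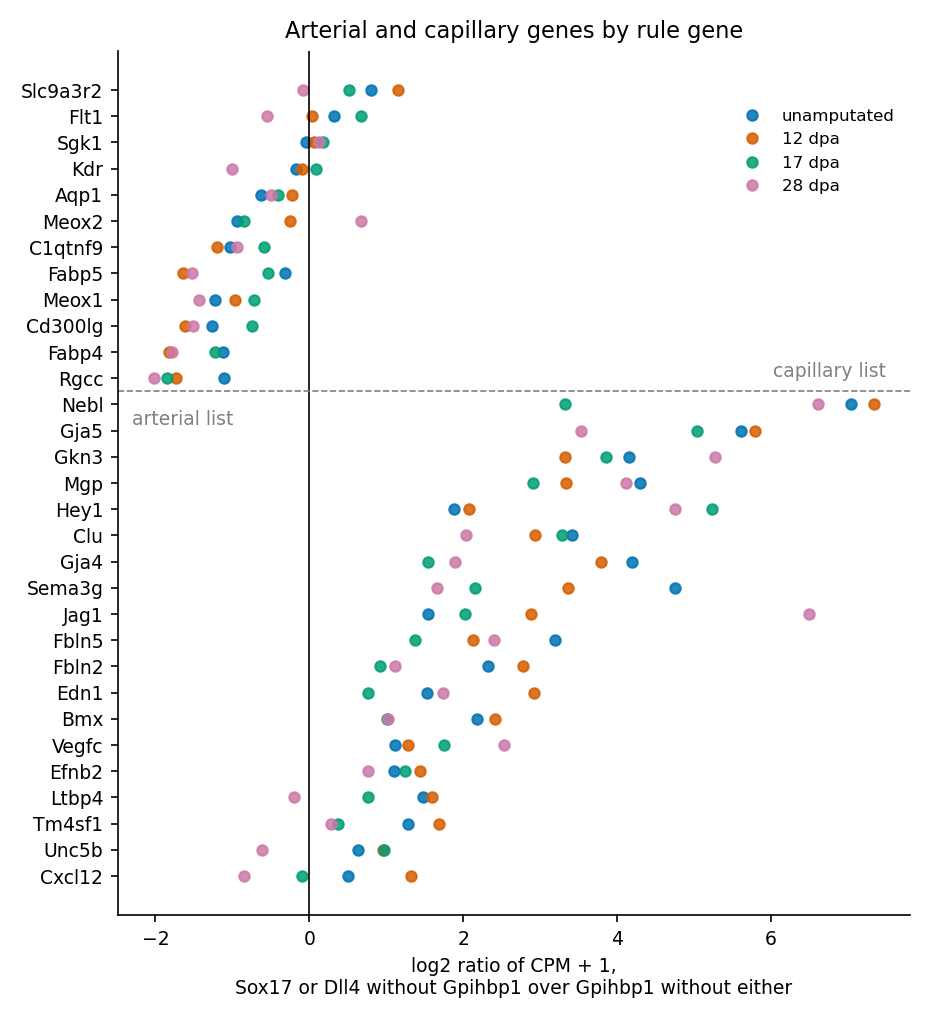
Log2 ratio of CPM (pseudocount 1) between members with Sox17 or Dll4 but no Gpihbp1 and members with Gpihbp1 but neither, for 19 arterial and 12 capillary genes, with 1 point per library in colours for the unamputated, 12, 17 and 28 dpa libraries. Points of 16 arterial genes lie above 0 in all 4 libraries, and those of 7 capillary genes lie below 0 in all 4.

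The share of members with arterial transcripts was close between libraries once depth was matched. At 3000 UMIs per cell, 41.2% (37.1 to 45.4), 41.2% (35.7 to 47.0), 38.2% (30.7 to 46.1) and 41.9% (34.3 to 49.8) of members in the unamputated, 12, 17 and 28 dpa libraries held at least 2 UMIs of Gja5, Gja4, Hey1, Bmx, Sema3g and Efnb2 together. All 4 intervals overlapped, and a difference was not detectable at this depth. The values rest on 561, 308, 165 and 167 members, with 4, 4, 8 and 13 left out as shallower. Without thinning the shares were 73.3%, 68.9%, 63.6% and 61.1%, in the order of depth. The same share was 6.8%, 8.81%, 3.91% and 4.22% in thinned venular cells, and 7.98%, 4.44%, 5.74% and 3.88% in cells of a keratinocyte gate, which served as the background level. In thinned lymphatic cells it was 19.8% (14.5 to 26), 10.3% (5.91 to 16.5), 17.6% (6.76 to 34.5) and 3.45% (0.0873 to 17.8). The members' share was above those of venular cells and the keratinocyte gate in every library, and its interval overlapped that of the 34 lymphatic cells at 17 dpa.

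Cycling could not be read from these cells. At 3000 UMIs, Mki67 or Top2a (a proliferation antigen and a topoisomerase of dividing cells) was found in 10.7% (8.26 to 13.6), 10.1% (6.94 to 14.0), 7.27% (3.81 to 12.4) and 7.78% (4.21 to 12.9) of members, with overlapping intervals. Mature neutrophils, which do not divide, gave 13.9% (8.33 to 21.4), 5% (0.127 to 24.9), 2.94% (0.0744 to 15.3) and 10.5% (1.3 to 33.1) of 122, 20, 34 and 19 cells. This background rests on the deeper neutrophils, since 277, 135, 115 and 79 were left out as under 3000 UMIs. The member shares were not above the neutrophil shares in the unamputated and 28 dpa libraries, and at 12 and 17 dpa the intervals overlapped.

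**Figure D3:**
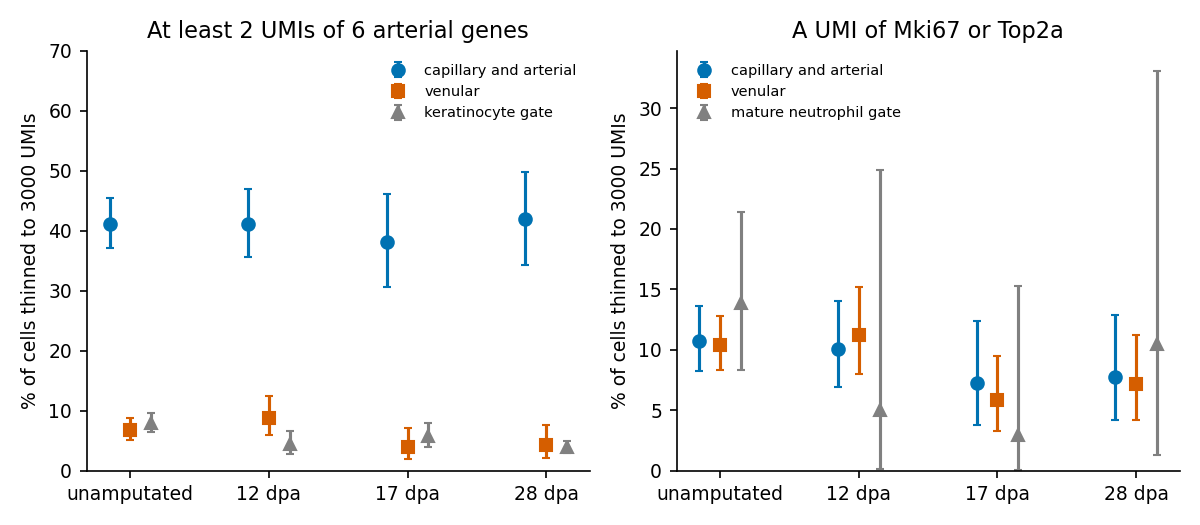
Left, percent of cells with at least 2 UMIs of 6 arterial genes after thinning to 3000 UMIs, in members, venular cells and a keratinocyte gate of each library; right, percent with a UMI of Mki67 or Top2a in members, venular cells and mature neutrophils; bars are exact 95% intervals. Members lie between 38.2% and 41.9% in the left panel in all 4 libraries, and in the right panel their intervals overlap those of venular cells.

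Differences in level between each amputated library and the unamputated one were taken on UMIs summed over members, as log2 of CPM plus 1. A gene counted as past the fold where it differed at least 2-fold and reached 50 CPM in either library. At 12 dpa 26 of 4109 genes were higher (0.633%) and 14 lower (0.341%). At 17 dpa 28 of 4136 were higher (0.677%) and 45 lower (1.09%). At 28 dpa 149 of 4296 were higher (3.47%) and 141 lower (3.28%). The median gene differed by log2 ratios of -0.19, -0.07 and -0.14 in these 3 comparisons. With that median set to 0, the counts were 44 higher and 7 lower at 12 dpa, 34 and 36 at 17 dpa, and 184 and 74 at 28 dpa. All 3 comparisons share the unamputated library.

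Some barcodes counted as members also carried transcripts of another cell type. Summed fibroblast markers stood at 2181, 3791, 1958 and 6682 CPM in members of the unamputated, 12, 17 and 28 dpa libraries, and 10 members held 86.4% of those in the last. All 10 markers of the fibroblast, mural and keratinocyte lists were detected in members of every library. Macrophage markers were at 40.15, 31.83, 92.37 and 368.9 CPM, and keratinocyte markers at 389.1, 336.2, 127.8 and 1091 CPM, both highest at 28 dpa. Leaving out members with 0.5% or more of their UMIs from another type's markers removed 27, 23, 8 and 23 cells. Fibroblast markers then stood at 212.8, 563.4, 557.4 and 707.9 CPM, keratinocyte markers at 135, 180.3, 128.3 and 351 CPM and macrophage markers at 40.87, 29.06, 95.21 and 110.7 CPM. All 3 were still highest at 28 dpa, so values without mixed barcodes are not free of other types' transcripts. Without these barcodes 15 genes were higher and 20 lower at 12 dpa, 34 and 41 at 17 dpa, and 74 and 135 at 28 dpa. Of the 149 genes higher at 28 dpa, 54 stayed past the fold, and of the 141 lower ones 92 did. Values without mixed barcodes are given beside most gene groups described here.

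Of the tip cell genes, Esm1 and Kcne3 were high at 12 dpa and Apln was low in both late libraries. At 12 dpa 2 of 19 tip cell genes were higher and none was lower, at 17 dpa 1 of 16 was lower, and at 28 dpa 6 of 18 were lower and none higher, against the background shares above. The 2 higher genes, Esm1 and Kcne3, reached 50 CPM only at 12 dpa, so they entered the count through the library where they were high. Without mixed barcodes 5 of 18 were lower at 28 dpa. Col4a1 (-0.86) and Mcam (-0.88) no longer passed the fold, and Marcks (-1.03) did. The list's median log2 ratios over the 3 times were 0.03, -0.53 and -0.71. In non-endothelial cells the same list had medians of -0.15, -0.21 and -0.63, so its median ratio at 28 dpa was nearly as low outside the endothelium. The 12 dpa median was between -0.05 and 0.22 over all alternatives and its sign changed with them.

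Esm1 (endocan, a proteoglycan secreted by tip cells, chr13:113209659-113218098, plus strand) stood at 36.0, 83.1, 37.3 and 22.1 CPM in members of the unamputated, 12, 17 and 28 dpa libraries. It was highest at 12 dpa, with a log2 ratio of 1.18 (interval 0.98 to 1.44), and was found in 15.7% of members there against 9.91%, 6.36% and 8.33% in the others. Kcne3 (a potassium channel subunit of tip cells, chr7:100176502-100184869, plus strand) stood at 29.1, 76.3, 7.59 and 6.63 CPM. Its 12 dpa level was also the highest (log2 ratio 1.36, interval 1.14 to 1.64), and both late libraries were lower than the unamputated one. Angpt2, the antagonist of the receptor TIE2, stood at 30.1, 46.3, 22.1 and 25.8 CPM, also highest at 12 dpa but within 2-fold. Without mixed barcodes Esm1 stood at 38.85, 93.46, 40.70 and 26.92 CPM, with the same highest library. At 12 dpa 283 of the 316 Esm1 UMIs lay in members with both Gpihbp1 and Sox17 or Dll4, where Esm1 stood at 42.41, 144.7, 24.14 and 26.07 CPM. Esm1 was also higher at 12 dpa than before amputation in members with Prnd alone (61.77 against 8.398 CPM, on 13 and 2 UMIs). With Gpihbp1 alone Esm1 stood at 47.66 CPM at 12 dpa against 34.85 CPM before amputation. In members with Sox17 or Dll4 alone it stood at 28.97, 3.786, 45.34 and 19.97 CPM, lowest at 12 dpa.

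Apln (apelin, a secreted peptide of sprouting endothelium, chrX:48025146-48034853, minus strand) was low in both late libraries. It stood at 127.6 and 132.6 CPM in the unamputated and 12 dpa libraries and at 60.7 and 50.1 CPM at 17 and 28 dpa. The log2 ratio was -1.06 (-1.39 to -0.77) at 17 dpa and -1.33 (-1.72 to -0.995) at 28 dpa, and 0.06 at 12 dpa. Apln was found in 32.6% and 36.2% of members in the early libraries and in 14.5% and 11.1% in the late ones, without matching of depth, which was lower in late members. At 17 dpa it no longer reached 2-fold with the stricter cell filter (-0.90) or with the median set to 0 (-0.99). Its level in venular cells followed the same order, at 72.3, 93.6, 41.5 and 23.8 CPM, and stayed at or under 1.02 CPM outside the endothelium. Its receptor Aplnr stood at 159.2, 126.0, 134.8 and 62.6 CPM in members, low at 28 dpa alone. The VEGF receptors Kdr (509.7, 471.6, 380.3 and 293.1 CPM) and Flt1 (1076, 1034, 1231 and 972 CPM) did not reach 2-fold in any library.

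Of 18 basement membrane genes 4 were at least 2-fold lower at 28 dpa and none was higher, where 3.28% of all genes were lower. The list's median was -0.57, against -0.14 at 12 dpa and -0.33 at 17 dpa. Col4a1 (a chain of type IV collagen, chr8:11198423-11312826, minus strand) stood at 3592, 3159, 2492 and 1678 CPM, and Nid2 (nidogen 2, a linker of laminin and collagen IV, chr14:19751265-19811787, plus strand) at 249.5, 259.6, 149.3 and 101.6 CPM. Their log2 ratios at 28 dpa were -1.10 and -1.29. Col15a1 (1072, 914.1, 766.8 and 531.6 CPM) and Col18a1 (1190, 1294, 719.4 and 530.2 CPM), multiplexin collagens of the basement membrane, were the other genes past the fold. The perlecan gene Hspg2 stood at 724.8, 681.0, 617.5 and 525.7 CPM and Sparc, a matrix-binding glycoprotein, at 4047, 4165, 3710 and 4216 CPM, so not all matrix genes were low. The pattern was not limited to members, since Col4a1 at 28 dpa had log2 ratios of -1.03 in venular cells and -1.28 in non-endothelial cells. Without mixed barcodes Nid2 alone remained past the fold and the list median was -0.46.

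Ephb1, Robo1 and Piezo2 were among the genes with the lowest late levels in members. Ephb1 (a receptor tyrosine kinase for ephrin-B ligands, chr9:101922128-102354693, minus strand) stood at 78.4, 55.8, 39.2 and 0.736 CPM, with 683 UMIs before amputation and 1 UMI at 28 dpa. It was found in 142, 71, 23 and 1 members, or 25.1%, 22.8%, 13.3% and 0.556%. At 28 dpa the log2 ratio was -5.51 with a counting interval from -12 to -4.25, because it rests on 1 UMI. In venular cells Ephb1 was at 12.1, 10.3, 5.05 and 3.55 CPM and in non-endothelial cells at 5.89, 3.16, 1.73 and 4.17 CPM. At 28 dpa it was thus lower in members than outside the endothelium, whereas in the other 3 libraries it was higher.

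Robo1 (a receptor for SLIT guidance proteins, chr16:72308306-73046095, plus strand) stood at 106.1 and 113.4 CPM in the early libraries and at 31.0 and 30.9 CPM at 17 and 28 dpa. Piezo2 (a mechanically gated cation channel, chr18:63010213-63387183, minus strand) stood at 169.6 and 147.0 CPM in the early libraries and at 45.6 and 30.2 CPM in the late ones. In non-endothelial cells the log2 ratios were -0.93 and -1.14 for Robo1 and -0.28 and -1.13 for Piezo2 at 17 and 28 dpa, against -1.74 and -1.75 for Robo1 and -1.87 and -2.45 for Piezo2 in members. The differences between members and these cells have no test here. At 17 and 28 dpa venular cells had ratios of -0.19 and -1.10 for Robo1 and -1.24 and -1.40 for Piezo2. In lymphatic cells Robo1 stood at 63.26, 40.65, 19.63 and 0 CPM, and Piezo2 at 383.8, 335.4, 291.2 and 304.6 CPM. Robo1 was thus also low at 28 dpa in both other endothelial classes, while Piezo2 stayed within 2-fold in lymphatic cells. Without mixed barcodes Robo1 stood at 17.95 CPM and Piezo2 at 14.96 CPM at 28 dpa. The neuron navigator gene Nav3 (267.1, 199.1, 172.7 and 50.1 CPM) and the metalloprotease gene Adam19 (63.8, 64.2, 38.0 and 16.2 CPM) were also lowest at 28 dpa. The imprinted genes Mest (137.4, 172.0, 44.9 and 18.4 CPM) and Peg3 (131.1, 134.7, 61.4 and 33.1 CPM) followed the same split between early and late libraries, and the 28 dpa log2 ratio of Mest was larger outside the endothelium (-3.88) than in members (-2.83).

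**Figure D4:**
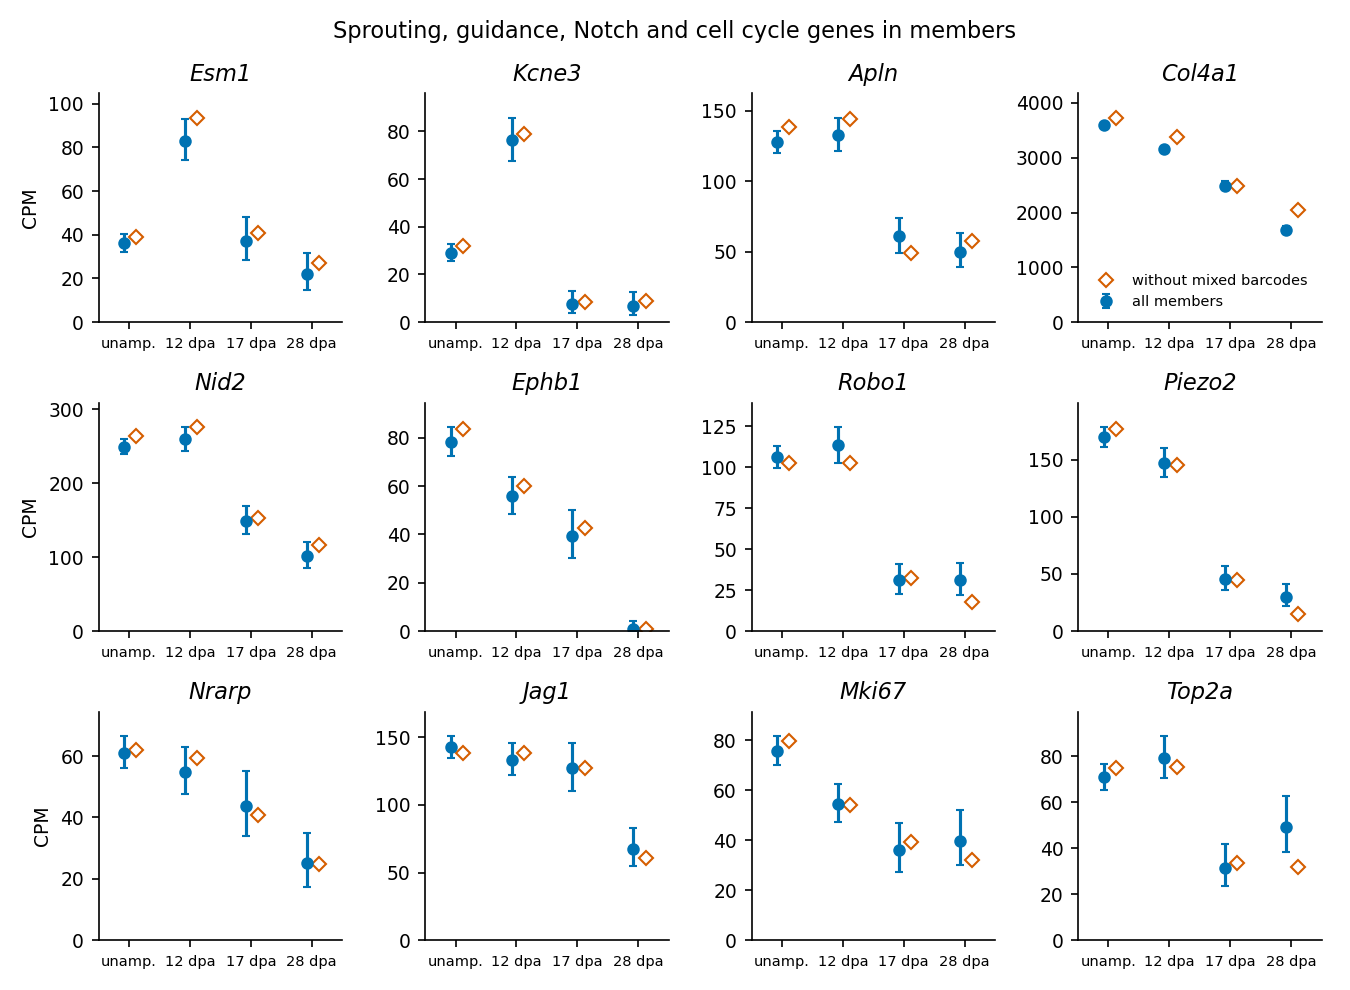
CPM of 12 genes summed over members in the unamputated, 12, 17 and 28 dpa libraries, with Poisson 95% intervals; circles are all members and open diamonds members without mixed barcodes. Esm1 and Kcne3 are highest at 12 dpa, and Ephb1 lies at 0.736 CPM at 28 dpa.

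Of 9 Notch genes, none passed the fold at 12 or 17 dpa and 3 were lower at 28 dpa, where 3.28% of all genes were lower. The list's medians were -0.10, -0.17 and -0.23. Jag1, a ligand (chr2:137081456-137116644, minus strand), stood at 142.7, 133.4, 127.2 and 67.7 CPM, and Nrarp, a target that feeds back on the pathway (chr2:25180758-25183339, plus strand), at 61.2, 54.98, 43.7 and 25.04 CPM. Notch4, the endothelial receptor (chr17:34564268-34588503, plus strand), stood at 81.2, 85.8, 56.3 and 39.8 CPM. All 3 were lowest at 28 dpa, with log2 ratios of -1.06, -1.26 and -1.01. In venular cells the ratio was -0.15 for Jag1 and -0.17 for Nrarp, neither past the fold. The other Notch genes stayed within 2-fold, and 8 of the 9 were below the unamputated library at 28 dpa. Notch1 stood at 176.6, 157.8, 192.3 and 164.9 CPM, Jag2 at 106.1, 108.6, 122.7 and 90.6 CPM, and the target Hes1 was the 1 gene above the unamputated library (137.1, 151.0, 165.8 and 195.9 CPM). Without mixed barcodes Notch4 no longer reached 2-fold (-0.75), while Jag1 and Nrarp did.

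None of 22 genes of endothelial identity passed the fold in any comparison, and the medians were -0.12, 0.04 and -0.22 at 12, 17 and 28 dpa. The sign at 12 dpa turned with the median of all genes set to 0 (0.07) and the sign at 28 dpa without mixed barcodes (0.01). The ETS factor Erg stood at 392.9, 339.1, 451.8 and 411.6 CPM, the sialomucin Emcn at 737.8, 649.5, 709.3 and 559.6 CPM and Egfl7, a secreted endothelial protein, at 823.5, 990.6, 883.9 and 726.8 CPM. The tight junction gene Cldn5 (chr16:18776847-18778262, plus strand) stood at 565.2, 546.9, 823.1 and 557.4 CPM, highest at 17 dpa.

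Arterial genes as a group were also close, with medians of 0.08, 0.12 and -0.04 over 16 genes. None passed the fold at 12 dpa. Gja4 (chr4:127311421-127314039, minus strand) stood at 165.7, 285.9, 143.0 and 111.9 CPM, highest at 12 dpa. Clu (clusterin, a secreted chaperone) stood at 77.2, 55.8, 170.8 and 182.6 CPM and was past the fold in both late libraries. Without mixed barcodes Mgp (matrix Gla protein) was also past the fold at 17 dpa (1.52). At 28 dpa Jag1 and Unc5b (a netrin receptor, 64.1, 70.2, 41.1 and 28.0 CPM) were lower. Efnb2 (ephrin-B2) stood at 319.2, 260.4, 267.0 and 195.9 CPM and Sema3g (chr14:31217860-31230352, plus strand) at 118.4, 97.3, 136.7 and 93.5 CPM, neither past the fold. No capillary gene of 12 or 13 measured passed the fold. Fabp4 stood at 756.4, 620.8, 1216 and 556.7 CPM and the water channel gene Aqp1 at 354.4, 469.8, 425.8 and 636.2 CPM. The sign of the arterial median differed between alternatives at 12 and 28 dpa.

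Of 20 immediate early genes 4 were higher past the fold at 17 dpa and 5 at 28 dpa, against 0.677% and 3.47% of all genes, and none was lower. Without mixed barcodes 3 passed at 17 dpa, where Fos came just short (0.976), and 5 at 28 dpa. The list's medians were 0.52 and 0.71, against 0.29 and 0.21 in non-endothelial cells. Fos (chr12:85473890-85477273, plus strand), a subunit of the AP-1 factor, stood at 473.6, 380.9, 997.1 and 1205 CPM. Zfp36 (tristetraprolin, a factor that destabilizes mRNA, chr7:28376784-28380253, minus strand) stood at 124.2, 68.1, 330.3 and 343.9 CPM. Both were lowest at 12 dpa and highest at 28 dpa. Junb (325.8, 272.3, 582.1 and 821.8 CPM), Ier3 (160.2, 122.1, 337.2 and 447.0 CPM) and Nr4a1 (79.4, 55.8, 179.7 and 188.5 CPM), a further AP-1 subunit, a stress-response gene and an orphan nuclear receptor, had the same split. In venular cells the log2 ratio of Fos was 0.17 at 17 dpa and 0.14 at 28 dpa, against 1.07 and 1.35 in members. At 12 dpa the heat shock gene Hspa1b was lower (295.6 against 111.5 CPM).

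Of the leukocyte adhesion and chemokine genes, 3 of 10 were past the fold at 17 dpa (Ccl2, Cxcl1 and Irf1) and 3 of 11 at 28 dpa (Cd44, Ccl2 and Cxcl1), against 0.677% and 3.47% of all genes. Both Ccl2 and Cxcl1 reached 50 CPM only at 17 and 28 dpa, so they entered the counts through the libraries where they were high. At 12, 17 and 28 dpa the list's medians came to -0.44, 0.67 and 0.52, and in non-endothelial cells to -0.55, 0.43 and 0.30. Cxcl1 (a neutrophil-attracting chemokine) stood at 49.5, 39.7, 137.3 and 195.1 CPM, with 31.3% of its UMIs in 1 cell at 17 dpa and 32.5% at 28 dpa. Ccl2 (a monocyte-attracting chemokine) stood at 32.2, 12.9, 77.8 and 200.3 CPM, but 1 cell held 88.6% of its UMIs at 17 dpa and 59.6% at 28 dpa. Without mixed barcodes Ccl2 stood at 20.9 CPM at 28 dpa, and 2 genes of the list were past the fold there (Cxcl1 and Nfkbia). Icam1 (an adhesion receptor for leukocytes) stood at 163.1, 87.6, 313.2 and 197.3 CPM, and Irf1 (an interferon regulatory factor) at 101.1, 69.7, 207.5 and 145.1 CPM, highest at 17 dpa. Of the interferon and MHC class I genes, Iigp1 (an interferon-induced GTPase) was past the fold at 17 dpa with 33.8% of its UMIs in 1 cell, and Bst2 (tetherin) was lower at 28 dpa (100.8 against 49.3 CPM), though not past the fold without mixed barcodes (-0.92). No MHC class II gene reached 50 CPM.

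Of 9 proliferation genes, 4 were at least 2-fold lower in members at 17 dpa, against 1.09% of all genes. The medians of the list were -0.05, -0.64 and -0.32 at 12, 17 and 28 dpa. Mki67 (chr7:135689784-135716361, minus strand) stood at 75.6, 54.5, 36.1 and 39.8 CPM, and Top2a (chr11:98992943-99024189, minus strand) at 71.0, 79.4, 31.6 and 49.3 CPM. Cenpf (a kinetochore protein) stood at 62.5, 42.6, 14.6 and 51.5 CPM and Stmn1 (stathmin, a microtubule destabilizer) at 105.5, 83.1, 35.4 and 47.9 CPM. These 4 were past the fold at 17 dpa, and Stmn1 alone at 28 dpa. Venular cells had a median of -0.67 at 17 dpa, and non-endothelial cells -0.33. Summed over the list, members stood at 1618, 1573, 980.7 and 1307 CPM and mature neutrophils, which do not divide, at 2390, 923.5, 841.7 and 1443 CPM. The lower level at 17 dpa than before amputation was thus also seen in neutrophils, by a larger factor. Without mixed barcodes Mki67 was not past the fold at 17 dpa, while 4 genes of the list were lower at 28 dpa and the median was -0.96.

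Mesenchymal genes at 28 dpa moved with the mixed barcodes. Acta2 (smooth muscle actin), Tagln (transgelin), Fn1 (fibronectin), S100a4, Col1a2 and Col3a1 passed the fold upward there, 6 of 11 measured against 3.47% of all genes, with a list median of 1.17. Fn1 stood at 381.8, 535.0, 296.7 and 1382 CPM with all members and at 371.9 CPM at 28 dpa without mixed barcodes. Without mixed barcodes 4 of them stayed past the fold (Tagln, S100a4, Col1a2 and Col3a1), with a median of 0.84, and Acta2 had a negative ratio (-0.50). Col1a1, Col1a2 and Col3a1 are also among the fibroblast markers and Acta2 among the mural markers that chose the mixed barcodes, so their values after that step are set in part by it. At 12 dpa Col1a1 alone passed the fold with all members, and Col1a1, Col1a2 and Col3a1 did without mixed barcodes. At 17 dpa Tagln was higher and Postn lower with all members, and the same 3 collagen genes were higher without mixed barcodes. S100a4, a calcium-binding protein, stood at 893.8, 1339, 1170 and 3140 CPM and at 2613 CPM at 28 dpa without mixed barcodes. Its log2 ratio was 1.81 in members, 1.91 in venular cells and 1.55 outside the endothelium. The fibroblast markers that moved with this list are given above, and their part in the result was not tested.

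The other lists showed few genes past the fold. The BMP and TGF-β list had medians of -0.30, -0.13 and -0.11. Tgfbr3 (betaglycan, a TGF-β co-receptor) was past the fold at 12 dpa without mixed barcodes alone (-1.07). Id2 (an inhibitor of basic helix-loop-helix factors) was past the fold at 28 dpa (29.7 against 74.4 CPM), but not without mixed barcodes (log2 ratio 0.965). Id3, of the same family, stood at 356.0, 595.3, 628.9 and 682.6 CPM and was past the fold at 28 dpa without mixed barcodes, at 775.7 CPM. Ltbp1 (a latent TGF-β binding protein) was past the fold in the other direction at 28 dpa without mixed barcodes (66.47 against 15.95 CPM), but not with all members (72.3 against 54.5 CPM). The shear stress and quiescence list had medians of -0.26, -0.02 and -0.20, and Tfpi (an inhibitor of tissue factor) was lower at 28 dpa with all members but not without mixed barcodes. Its factors Klf2 (329.1, 278.3, 430.9 and 500 CPM) and Klf4 (250.3, 168.3, 340.4 and 450.6 CPM) were lowest at 12 dpa and highest at 28 dpa without reaching 2-fold. Hypoxia and glycolysis genes had medians of -0.01, -0.32 and -0.17. Of these, Eno1 (enolase, a glycolytic enzyme) stood at 85.2, 50.8, 28.5 and 54.5 CPM and was past the fold at 17 dpa (-1.55, and -1.60 in non-endothelial cells). Medians of lipid handling genes were -0.48, 0.30 and 0.24, and those of barrier genes -0.19, 0.22 and 0.01.

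**Figure D5:**
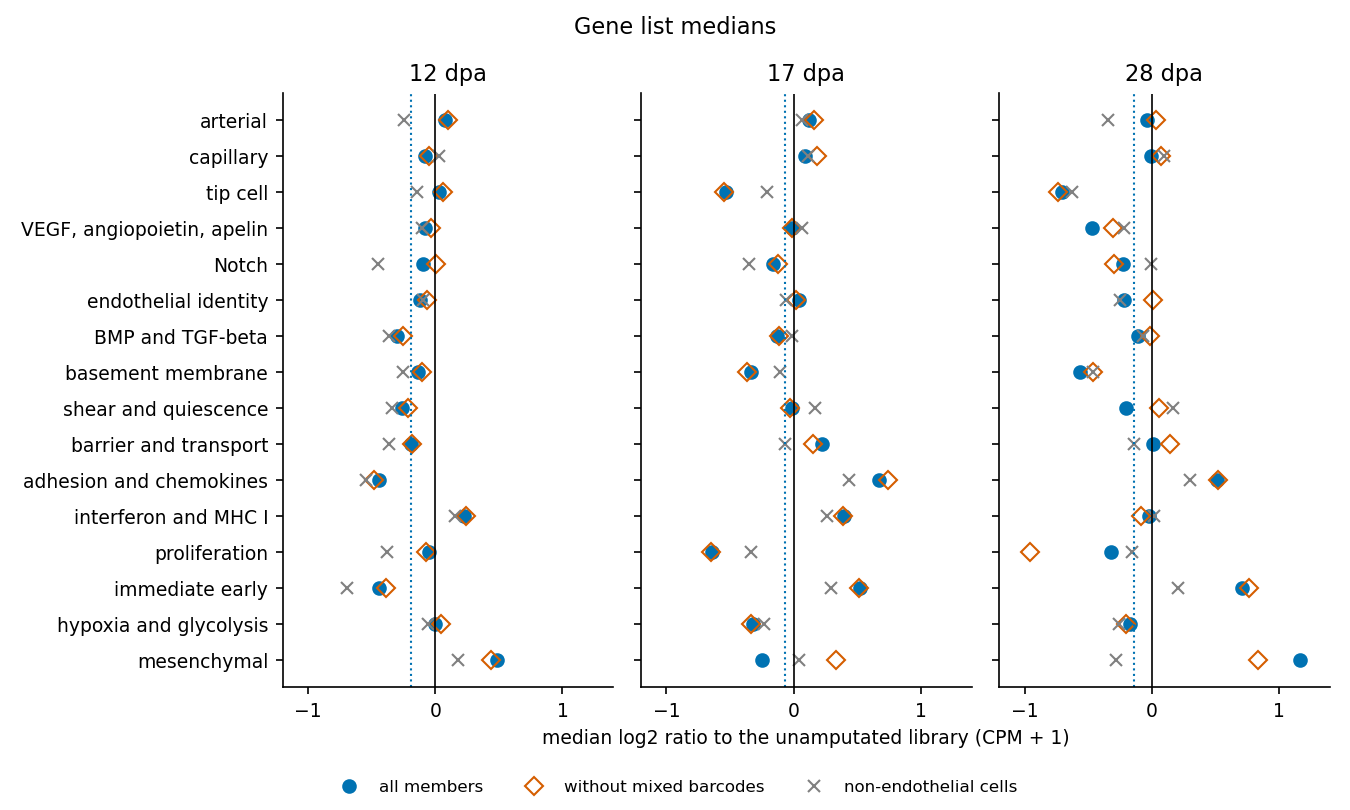
Median log2 ratio of 16 gene lists at 12, 17 and 28 dpa against the unamputated library; circles are members, diamonds members without mixed barcodes, crosses non-endothelial cells, and the dotted line is the median of all genes measured in members. Tip cell genes lie at -0.71 and immediate early genes at 0.71 at 28 dpa.

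Outside the lists, several genes with large differences at 12 dpa were also past the fold in non-endothelial cells. Cdk8 (a kinase of the Mediator complex) stood at 464.1, 2008, 1216 and 583.2 CPM in members, with log2 ratios at 12 dpa of 2.11 in members, 2.12 in venular cells and 1.80 in non-endothelial cells. Cmss1 had 1.38, 1.33 and 1.39 in the same order. The histone gene Hist1h4d stood at 35.7, 117.6, 63.3 and 39.0 CPM in members. Its 12 dpa log2 ratio was 1.69 in members and 1.07 in non-endothelial cells. Other genes were past the fold in members but not in non-endothelial cells. Camk1d (a calmodulin-dependent kinase) had 1.35 in members and 0.90 outside the endothelium, with 1.31 in venular and 1.5 in lymphatic cells. Zfpm2 (a cofactor of GATA factors) had -1.33 in members, -0.48 outside the endothelium, -0.45 in venular and -0.36 in lymphatic cells.

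At 28 dpa the genes highest against the unamputated library were led by Prg4 (lubricin), a secreted lubricant of joints, and Igfbp6 (an insulin-like growth factor binding protein). Both were also higher in other cells of that library. Prg4 had log2 ratios of 6.53 in members, 3.81 in venular, 1.59 in lymphatic and 3.25 in non-endothelial cells. Igfbp6 had 4.66, 2.49, 0.706 and 2.11 in the same order. Prg4 was at 112.7 CPM at 28 dpa, in 10 cells with 48.4% of its UMIs in 1 of them, and had 2 UMIs in unamputated members. Without mixed barcodes it stood at 68.8 CPM and was still the highest of the ranked genes. Igfbp6 stood at 16.1, 55.5, 41.8 and 431.5 CPM, with 20.6% of its 28 dpa UMIs in 1 cell. Without mixed barcodes it stood at 2.90, 5.39, 7.59 and 47.86 CPM, under the 50 CPM required of a call. Other genes past the fold both with and without mixed barcodes were Tppp3 (a tubulin polymerization factor, 58.7, 73.9, 119.6 and 313.7 CPM, and 284.2 CPM at 28 dpa without mixed barcodes) and Cst3 (cystatin C, a secreted protease inhibitor, 629.5, 733.9, 1288 and 2920 CPM, and 2496 CPM without). Gadd45b (a stress-response gene) stood at 60.2, 69.2, 110.7 and 219.4 CPM. Apoe (apolipoprotein E) stood at 83.5, 59.2, 197.4 and 484.5 CPM and at 221.3 CPM at 28 dpa without mixed barcodes.

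Set beside venular cells, members were higher for the same genes in all 4 libraries, which is a description because the rule separated these classes. Of 3159 genes with at least 50 CPM in members of every library, 31 were at least 2-fold higher than in venular cells in all 4 libraries, and 179 were so against lymphatic cells. Of 16 arterial genes 13 were higher in members in all 4 libraries and none lower in all 4, while 14 of 14 venous genes were lower. Of all 4684 genes, 28.8% were higher and 17.9% lower in all 4. Tip cell genes (18 of 20) and basement membrane genes (16 of 18) were mostly higher in members, and capillary genes were split (6 higher and 6 lower of 13). St8sia6 (a sialyltransferase) stood at 119.5, 126.5, 117.1 and 108.2 CPM in members and at 9.94, 10.6, 7.76 and 6.59 CPM in venular cells. Nebl (nebulette, an actin-binding protein) stood at 56.2, 59.2, 58.8 and 61.9 CPM against 5.26, 3.84, 3.11 and 5.07 CPM. Rbp7 (a retinol-binding protein) stood at 90.2, 76.8, 119.6 and 152.4 CPM against 14.1, 20.7, 10.9 and 22.3 CPM. None of these ranges overlapped between the classes.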

How the data were processed

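The deposited values were raw UMI counts per gene and barcode, made with Cell Ranger 7.1.0 on mm10 per the submitters' processing notes; the annotation is not given in the sources used here. Of 32285 gene identifiers 32158 were found in GENCODE M21, which gave gene positions. The cell filter required 500 or more genes, 1000 or more UMIs and a mitochondrial share of 10% or less. Members were called by the rule in the opening paragraph, their UMIs were summed per library, and log2 ratios were taken on CPM with a pseudocount of 1. Intervals were exact: Clopper-Pearson for shares, Poisson for sums and conditional binomial for ratios. An exact sign-flip test over 4 libraries cannot go below 0.125, so no test was run. Shares of cells were also computed after thinning to 3000 UMIs. Doublet scores came from Scrublet; doublets stayed in, and were removed as an alternative with an assumed rate of 0.8% per 1000 barcodes. That rate marked 12.8%, 7.05%, 8.41% and 12.2% (unamputated, then by time), and the caller's own threshold 2.03%, 2.18%, 2.52% and 4.07%. The scripts were tested on simulated data.

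The members, the 20 gene lists and the 8 marker lists of other cell types were chosen with earlier results of these data known. Named genes were the 2 to 5 members of each list with the highest level or largest ratio, the 10 highest and 10 lowest of each comparison at 50 CPM or more (without genes of the rule, marker lists, mitochondrial, ribosomal, haemoglobin, immunoglobulin and sex-linked genes, and genes under 0.1 of their level in another cell gate), those furthest from non-endothelial cells and those highest over venular and lymphatic cells. Genes named beside them as contrasts were chosen after their values were seen. Tools were Python 3.11.15, numpy 2.4.6, scipy 1.17.1, pandas 2.3.3, scanpy 1.11.5 and matplotlib 3.10.9.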

Additional observations from a re-analysis of the deposited data

Results flagged for a closer look

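Xist stood at 652.1 CPM in members at 12 dpa, although the labels give pooled sexes for every library. It was picked out because it lies outside the gene comparisons and stood at 0.115 CPM in unamputated members. At 28 dpa the log2 ratios of 4 genes had opposite signs in members and in non-endothelial cells, each past 2-fold. Col6a3, a chain of type VI collagen, had 1.56 in members and -1.13 outside the endothelium. Col5a3, a chain of type V collagen, had 1.62 and -1.03. Tnn, the matrix protein tenascin-N, had 1.43 and -1.13. Fam167b had -1 in members and 1.73 outside the endothelium. At 28 dpa 1 cell held 28.8% of the UMIs of Col6a3, 63.5% of Col5a3 and 46.1% of Tnn in members. Without mixed barcodes the ratios were 0.60 for Col6a3, 0.985 for Col5a3, -0.33 for Tnn and -0.76 for Fam167b, none past 2-fold. None of these differences was tested, since each condition has 1 library.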

How the results depend on the processing

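Each choice was changed alone, and leaving out mixed barcodes was chosen after seeing the data. Of 850 alternative values of 61 list medians, 747 stayed within the counting error of the list (the median half-width of its genes' 95% intervals), 90 moved further and 13 reversed a median larger than that error. A sign other than the reported one was seen in 81 values, those 13 and otherwise medians smaller than that error. Of 1500 values of 125 gene ratios, 1322 counted as unchanged, 153 fell short of the fold, 15 moved and 10 reversed. A ratio of at least 2-fold was unchanged where it kept its direction and side of the fold. A smaller ratio was unchanged where it stayed within its counting interval, and moved otherwise. The cause of each change was not tested.

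Counts past 2-fold moved with the level required. With a minimum of 20 CPM, 12 dpa had 50 higher and 46 lower, 17 dpa 61 and 100, and 28 dpa 306 and 269. With 100 CPM, 12 dpa had 16 and 7, 17 dpa 19 lower, and 28 dpa 89 and 86. With the median set to 0 there were 44 higher and 7 lower at 12 dpa and 74 lower at 28 dpa. Without mixed barcodes 15 were higher at 12 dpa and 74 at 28 dpa, and with doublets removed 82 were higher at 28 dpa. Thinned before the rule, 31 were lower at 12 dpa and 87 higher at 28 dpa. The stricter cell filter gave 26 lower at 12 dpa, and a mean over cells 25 lower at 17 dpa.

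The member share of kept cells was 5.24%, 5.24%, 2.43% and 2.09% in the unamputated, 12, 17 and 28 dpa libraries with a minimum of 1 rule UMI, and 4.22%, 3.80%, 1.61% and 1.04% with 3. A looser cell filter gave 4.22% and 3.84% in the first 2 libraries, and a stricter one 5.36%, 5.08% and, at 28 dpa, 1.82%. Of gate cells it was 31.5%, 32.1%, 24.2% and 23.6%, and thinned 3%, 3.26%, 1.24% and 0.964%. In every setting both late libraries stayed below both early ones. The arterial share was 31.0%, 30.5%, 30.2% and 23% at 2000 UMIs, 53.2%, 56.9%, 58.6% and 50.5% at 5000, and 73.3%, 68.9%, 63.6% and 61.1% without thinning. The Mki67 or Top2a share was 14.5% unamputated and 13.8% at 28 dpa at 5000 UMIs, 21.8%, 19.9% and 15% in the first 3 libraries without thinning, and 4.17% at 28 dpa without mixed barcodes.

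Reversed medians at 12 dpa were endothelial identity (0.0733), basement membrane (0.0547) and barrier genes (0.00253) with the median set to 0, and, thinned, basement membrane (0.00331), mesenchymal genes (-0.0783) and fibroblast markers (-0.695). At 17 dpa mesenchymal genes turned with doublets removed (0.381), thinned (0.317) and without mixed barcodes (0.335). At 28 dpa endothelial identity turned without mixed barcodes (0.00919), shear genes with doublets removed (0.0145) and without mixed barcodes (0.0597), and lipid genes at 100 CPM (-0.0644). Of single genes, Col1a1 turned at 12 dpa thinned (-0.0828), and Postn at 17 dpa with doublets removed (1.19) and thinned (0.47). At 28 dpa Col6a3 turned thinned (-0.26), Tnn with doublets removed (-0.20), thinned (-3.09) and without mixed barcodes (-0.33), Acta2 without mixed barcodes (-0.50), and Ccl2 with doublets removed (-0.90) and without mixed barcodes (-0.35).

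No paired analysis was possible because each condition has 1 library. Depth limits the late libraries most: the 180 members at 28 dpa sum to 1358064 UMIs, against 8716726 before amputation.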

Other observations

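The genes given here lie outside the lists and were chosen after their values were seen. Srgap1, a SLIT-ROBO GTPase activating protein, stood at 165.2, 142.8, 88.6 and 44.9 CPM in the unamputated, 12, 17 and 28 dpa libraries, and Ccser1 at 486.0, 306.7, 229.7 and 129.6 CPM. Nes (nestin, an intermediate filament protein of sprouting endothelium) stood at 158.1, 179.4, 80.4 and 67.0 CPM. In these 3 genes both late libraries were below both early ones. Igfbp3, an insulin-like growth factor binding protein, stood at 757.1, 624.7, 549.8 and 355.7 CPM.

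Lef1 (a factor of canonical Wnt signalling) stood at 29.6, 54.7, 9.49 and 28.0 CPM, and Ccn2 (connective tissue growth factor, a YAP target) at 86.4, 59.7, 22.8 and 50.8 CPM, both lowest at 17 dpa. Galnt15 (a glycosyltransferase) stood at 74.8, 41.8, 179.7 and 169.4 CPM and Samd12 at 42.1, 28.9, 99.97 and 89.8 CPM, both higher in the late libraries.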
